A study of Mus musculus with 4 samples.

Results

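The phosphoinositide and diacylglycerol genes described here are the mouse phospholipases C, the protein kinases C, the diacylglycerol kinases and the enzymes that make phosphatidylinositol bisphosphate (PIP2) or remove inositol phosphates. Members were the protein-coding genes whose symbols fall in the Plc (classes b, g, d, e, h, z and l), Prkc, Dgk, Itpk, Inpp and Pip4k or Pip5k series. The rule found 55 genes among 32564 genes matched in the libraries, and 53 of them had a count in at least 1 library, out of 19914 genes with a count. The rule uses no measured value.

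Phospholipase C cuts PIP2 in the plasma membrane into inositol trisphosphate (IP3), which opens calcium channels of the endoplasmic reticulum, and diacylglycerol, which stays in the membrane and activates protein kinase C together with calcium. Receptors coupled to Gq proteins act on the beta class of phospholipase C and receptor tyrosine kinases on the gamma class. Diacylglycerol kinases end the lipid signal by making phosphatidic acid, and IP3 kinases and phosphatases end the signal of IP3. The series title speaks of intracellular calcium in adult neural stem cell activation, and this pathway is one of the routes by which cells release stored calcium.

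The 4 libraries came from neural stem cells sorted as Prom1+, EGFR+ and GFAP+ and labelled as activated, from gfap:GFP transgenic mice of 3 months on a CD1/C57BL/6 mixed background without treatment, and they form 1 group. The transgene takes its name from the promoter of Gfap, which is also active in astrocytes outside the stem cell niche. The design text of the series instead speaks of quiescent cells taken 3 days after antagomers to miR204, or aCSF, were injected into the ventricle, and no sample label names either treatment. The labels were followed here, so every SD is a spread over 4 libraries that could also hold a difference in treatment. The labels do not state whether different mice gave the 4 libraries.

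Full-length cDNA was made from total RNA and sequenced in pairs, and abundance was estimated per transcript. The libraries held between 16978938 and 23727664 estimated counts. Levels are in TPM (transcripts in each 1000000), which correct for transcript length, and are summed over all transcripts of a gene unless coding transcripts are named. Values for single libraries are given in the order of libraries 1 to 4. The 14 stem cell markers listed, among them Gfap, Prom1 and Egfr, were all above 1 TPM, and their summed level was 2633 to 3508 TPM. Markers of other cells were also present: all 10 oligodendrocyte, all 10 microglia, all 9 ependymal and 10 of 11 mature neuron markers were above 1 TPM, while 2 of 8 endothelial or mural markers were, with Cdh5 and Kcnj8 at 0. Of 6 neuroblast markers 5 were above 1 TPM (sum 257 to 479 TPM), as were 5 of 6 oligodendrocyte precursor markers (sum 163 to 223 TPM). Of all protein-coding genes tested, 71.6% were above 1 TPM. Oligodendrocyte markers summed to 2521 to 4390 TPM, above the stem cell markers in libraries 2 and 4. Mature neuron markers summed to 1407 to 1733 TPM.

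Most of the pathway was present in the activated neural stem cell libraries, and 1 gene led it. Prkcb, a calcium- and diacylglycerol-dependent kinase, had 213 ± 40.4 TPM (SD, n = 4), rank 582 of the 19914 genes, nearly all of its coding signal in the beta II form. Pip5k1c, which makes PIP2, followed at 65.7 ± 10.4 TPM (rank 2532), and Prkcz, an atypical kinase that does not respond to diacylglycerol, at 61.2 ± 9.23 TPM (rank 2746). Several phospholipases C (Plcd4, Plcb3, Plcg1 and Plcd1) lay near the enzymes that end their signals, Inpp5a, Itpka and Dgkz, with means of 39.7 to 48.6 TPM.

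Each gene's mean log2(TPM + 1) was tested against the value at 1 TPM with limma across all 19914 genes, two-sided, at an adjusted p under 0.05. Of the 53 genes with a count, 45 were above 1 TPM, which is 84.9%, beside 62.8% of all genes tested and 71.6% of the protein-coding ones. Only Dgkk was below 1 TPM, beside 23.2% of all genes tested and 15.6% of the protein-coding ones. Of the rest, 7 could not be placed on either side, among them Dgkg, Inpp4b, Pip4k2b, Plcb2, Plcg2 and Plch2, and Plcz1 and Pip5kl1 had no count. The median of the 53 means was 9.76 TPM, beside 8.34 TPM over all genes tested and 12.5 TPM over protein-coding ones, and 26 members had a mean of at least 10 TPM.

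**Figure D1:**
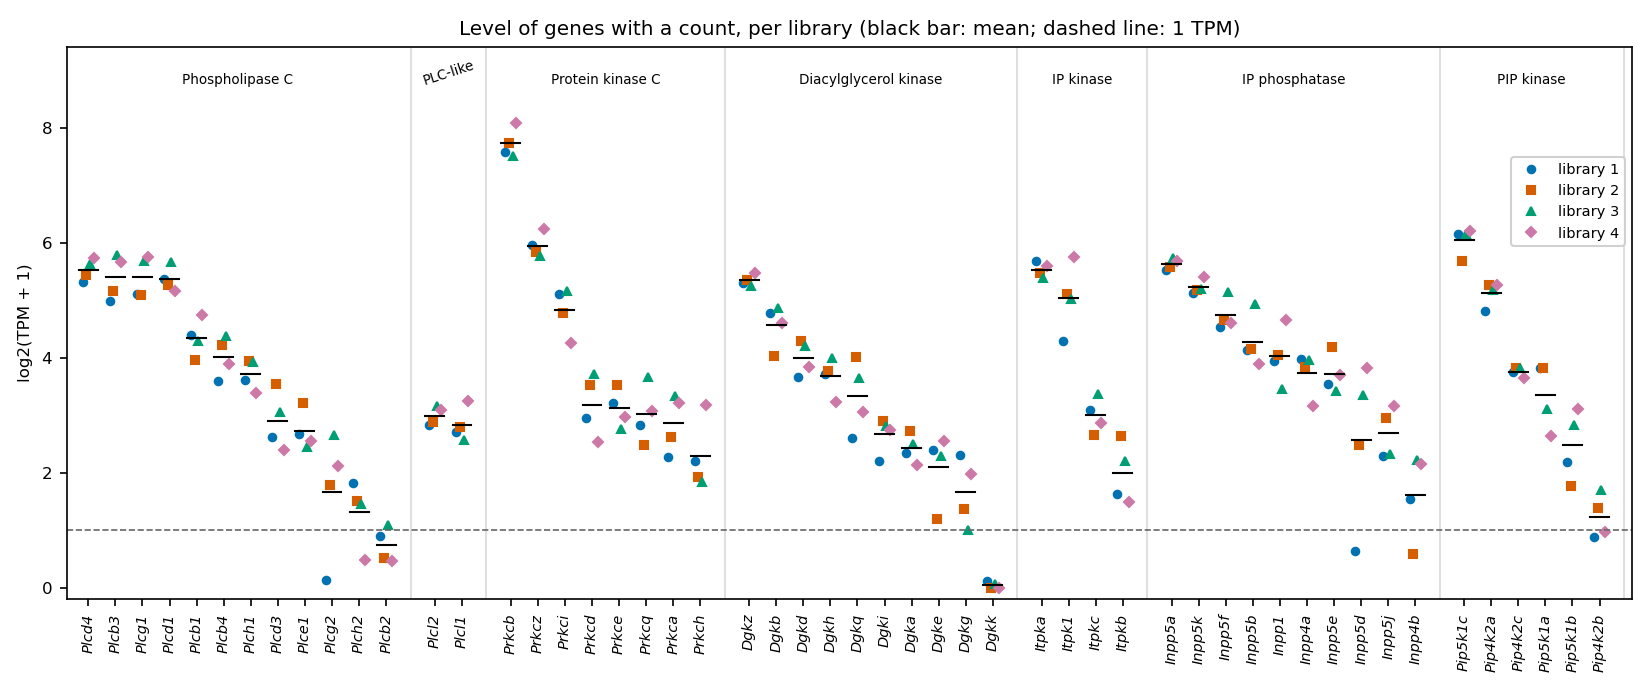
Level of the genes with a count named here, as log2(TPM + 1) on the vertical axis, grouped by family and ordered by mean, with 1 point for each of the 4 libraries, a black bar at the mean and a dashed line at 1 TPM. Prkcb stands highest with 4 points close together, while Plcg2 and Inpp5d spread over several log2 units.

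PIP2 is made by type I kinases (Pip5k1), which phosphorylate phosphatidylinositol 4-phosphate, and by type II kinases (Pip4k2), which start from the rarer 5-phosphate. The 7 genes of this family summed to 128.6 ± 8.16 TPM (SD, n = 4), and 5 were above 1 TPM. Pip5k1c, the main PIP2-making kinase of synapses, carried 50.9 ± 5.66% of it, with 70.2, 50.2, 70.1 and 72.5 TPM. Library 2 was the low one and the other 3 lay close together.

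Of the type II kinases, Pip4k2a had 27.0, 37.3, 35.3 and 37.4 TPM, with library 1 lowest. Pip4k2c had 12.4, 13.1, 13.1 and 11.5 TPM, the narrowest spread of any member of at least 10 TPM (SD 0.0847 on the log2 scale). Pip4k2b had 0.838, 1.62, 2.26 and 0.964 TPM and could not be placed against 1 TPM (adjusted p = 0.311, limma). The remaining type I kinases were lower: Pip5k1a averaged 9.76 ± 3.95 TPM and Pip5k1b 4.92 ± 2.35 TPM. Pip5kl1, a scaffold that binds these kinases, had no count, and 3 counts in the shallowest library would be 0.264 TPM.

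To compare relatives without library scaling, 29 pairs of members were set against each other inside each library, as the log2 ratio of TPM + 1. In 21 of the 29 pairs the same gene was higher in 4 of 4 libraries, and in 20 of those the mean ratio was at least 2-fold. The pairs were chosen with earlier results of these data known, and no share over other gene pairs was computed. These counts are therefore description alone. An exact two-sided sign-flip permutation test gave p = 0.13 for each of the 21, the smallest that 4 libraries can give (0.173 after adjustment over the 29 pairs), so no pair could pass a threshold of 0.05. Pip5k1c was 6.49-fold (range 3.64 to 11.7) above Pip5k1a and 11.9-fold (range 8.57 to 15.6) above Pip5k1b. Counting coding transcripts alone these ratios were 3.54-fold and 6.92-fold, still in 4 of 4 libraries. Pip4k2a was 14.8-fold (range 11.1 to 19.6) above Pip4k2b and 2.59-fold (range 2.08 to 3.08) above Pip4k2c.

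**Figure D2:**
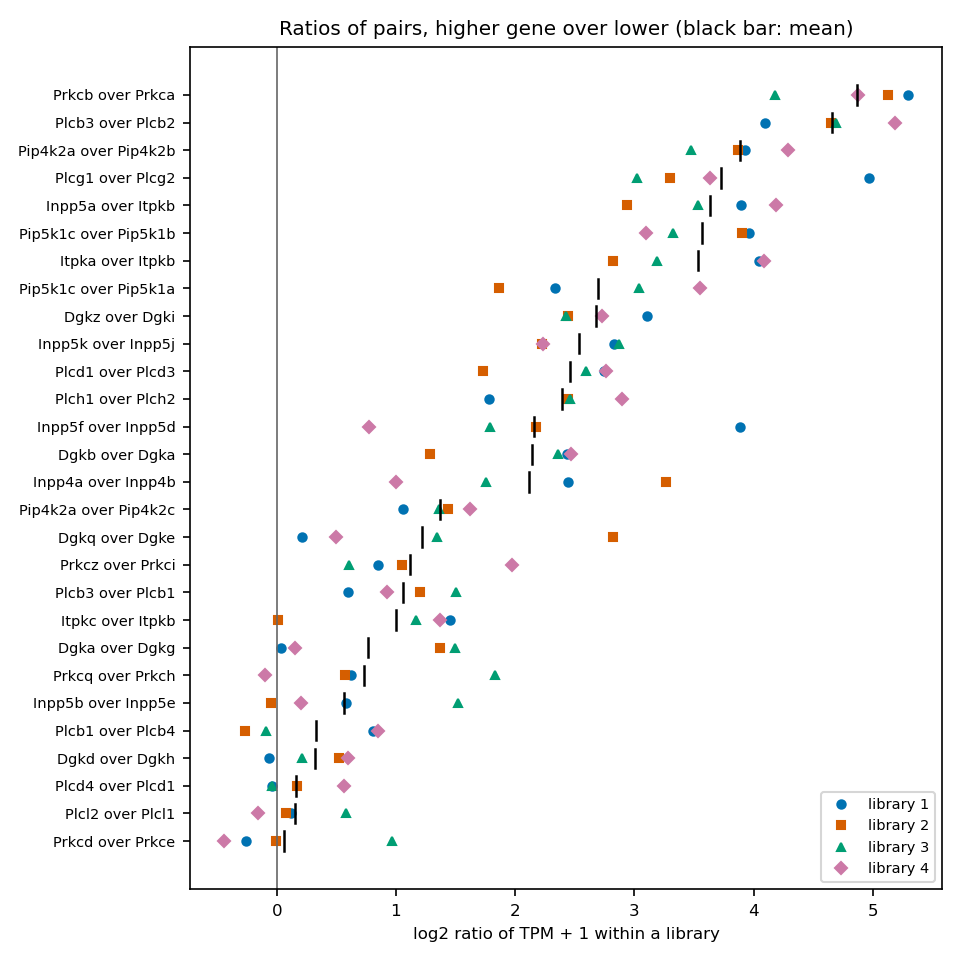
Ratio of pairs of members within each library, as log2 of TPM + 1 of the first gene over the second, with 1 point per library and a black bar at the mean. In 21 pairs all 4 points lie on the right of 0, and the Prkcb over Prkca pair has the highest mean.

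The Pip5k1c signal was split over transcripts in an uneven way. Transcripts annotated as coding held 48.8% of its TPM. A transcript annotated for nonsense-mediated decay (Pip5k1c-208), which spans the gene but whose reading frame ends after 100 codons, had 33.5, 21.1, 32.0 and 28.7 TPM, or 43.7 ± 3.62% of the gene. In coding sequence, the 3 full coding transcripts differ by 2 optional exons near its 3′ end. The form without either (Pip5k1c-210, 635 codons) had 21.9, 9.64, 21.5 and 26.7 TPM. The form with the last optional exon (Pip5k1c-202, 661 codons), which gives the tail known to bind talin at adhesions, had 4.95, 0.00181, 1.71 and 8.02 TPM. The form with both (Pip5k1c-201, 687 codons) had 5.64, 15.0, 7.29 and 3.95 TPM. Library 2 stood apart here too: the form without either exon was 67.4, 39.1, 70.5 and 69.1% of the 3 forms. Outside the coding sequence the transcripts differ as well: Pip5k1c-202 ends at position 81318254, Pip5k1c-210 at 81319972 and Pip5k1c-201 at 81319973. The split between forms can therefore also rest on noncoding bases. The 2 exons are shown because the coding sequences of the forms differ in these bases alone. Each has 78 bases on the plus strand of GRCm38 (GENCODE M21 transcripts), at chr10:81317326-81317403 and chr10:81315879-81315956.
Last optional exon: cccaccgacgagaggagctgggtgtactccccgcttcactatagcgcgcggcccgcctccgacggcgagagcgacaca
Earlier optional exon: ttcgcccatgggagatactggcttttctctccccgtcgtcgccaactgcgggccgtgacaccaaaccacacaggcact

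The 13 phospholipase C genes summed to 236 ± 33.6 TPM, with 199, 218, 275 and 250.8 TPM in the single libraries. Of these genes 9 were above 1 TPM, and 4 lay close together at the top. Plcd4, of the calcium-driven delta class, had 38.9, 42.3, 48.2 and 51.9 TPM. Plcb3, a target of Gq and of G protein beta-gamma subunits, had 30.8, 34.9, 54.3 and 49.5 TPM. Plcg1, the form that binds activated receptor tyrosine kinases such as EGFR, had 33.3, 33.1, 50.4 and 52.7 TPM. In all 3, libraries 3 and 4 were above libraries 1 and 2. Plcd1 had 40.1, 37.5, 49.4 and 34.7 TPM and did not follow this split.

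Below these, Plcb1, a Gq target of forebrain neurons, averaged 19.7 ± 4.58 TPM, Plcb4 15.6 ± 3.92 TPM and Plch1, a calcium-sensitive neuronal form, 12.3 ± 2.38 TPM. Plcd3 (6.84 TPM) and Plce1 (5.75 TPM), which takes signals from Ras proteins, were also above 1 TPM. The call for Plcb4 was lost when only its most abundant transcript was used (log2 level 0.77 over that at 1 TPM, adjusted p = 0.166, limma). That transcript (Plcb4-215) is annotated for nonsense-mediated decay. By coding transcripts Plcb4 was above 1 TPM (log2 level 1.70, adjusted p = 2.3e-04, limma).

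Among the low genes 3 were not placed. Plcg2, which acts below immune receptors in blood cells and microglia, had 0.0928, 2.46, 5.32 and 3.33 TPM: library 1, with 6 estimated counts, was far below the other 3, and its adjusted p was 0.190 (limma). Without library 1 the call was above 1 TPM (log2 level 1.19, adjusted p = 0.0129, limma). By edgeR Plcg2 was also placed above (1.48 as log2 TPM without the added 1, adjusted p = 0.0148). Plch2 had 2.55, 1.85, 1.75 and 0.406 TPM, lowest in library 4, and lay below 1 TPM when only the most abundant transcript was used (log2 level -0.59, adjusted p = 0.0207). Plcb2, the beta form of blood cells, had 0.856, 0.431, 1.13 and 0.384 TPM, and its coding transcripts, with a mean of 0.330 TPM, were below 1 TPM (adjusted p = 0.00646, limma), as was its most abundant transcript alone (log2 level -0.67, adjusted p = 0.00258). Plcz1, the sperm form, had no count, and 3 counts in the shallowest library would be 0.156 TPM.

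Within classes, Plcb3 was 25.2-fold (range 17.1 to 36.5) above Plcb2 and 2.08-fold (range 1.51 to 2.83) above Plcb1, Plcg1 was 13.3-fold (range 8.12 to 31.4) above Plcg2, and Plcd1 was 5.49-fold (range 3.32 to 6.79) above Plcd3. Plch1 was 5.26-fold (range 3.45 to 7.45) above Plch2. Plcb1 and Plcb4 changed order between libraries, as did Plcd1 and Plcd4. By coding transcripts alone Plcb1 was 2.58-fold above Plcb4, in 4 of 4 libraries. The catalytically inactive relatives Plcl1 and Plcl2, which bind IP3 without cutting PIP2, were both above 1 TPM, at 6.25 ± 1.58 TPM and 6.98 ± 0.871 TPM, and did not keep 1 order.

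Plcb1 has 2 known ends, a and b, of which the shorter b form is the more nuclear one. The b coding sequence (1173 codons, in 2 transcripts) made up 62.2, 70.9, 86.6 and 82.6% of the 2 forms in the single libraries, or 75.6 ± 11.2%, and was the larger in 4 of 4. The a form (1216 codons) had 7.28, 3.51, 2.08 and 2.97 TPM, with library 1 highest. By estimated counts, which do not correct for length, the b share was 65.4%. Both forms share their first 3423 coding bases. Their own ends follow, at chr2:135399249-135399343 for b and chr2:135472053-135472276 for a (GRCm38, plus strand), shown because they are the only coding bases that tell the forms apart.
Plcb1 b end: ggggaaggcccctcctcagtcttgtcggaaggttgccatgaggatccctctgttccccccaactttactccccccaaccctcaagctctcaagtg
Plcb1 a end: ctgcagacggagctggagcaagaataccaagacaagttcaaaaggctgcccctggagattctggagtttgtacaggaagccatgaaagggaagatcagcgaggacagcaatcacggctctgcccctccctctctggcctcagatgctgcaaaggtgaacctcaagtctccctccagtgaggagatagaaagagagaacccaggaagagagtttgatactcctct

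The 9 protein kinase C genes had the highest sum of the 7 families, 342 ± 46.3 TPM, and 8 of them were above 1 TPM. Prkcb, a conventional form that needs both calcium and diacylglycerol, made up 62.1 ± 3.75% of that sum, between 58.2 and 65.9%. It had 189, 212, 181 and 270.5 TPM, highest in library 4, and its log2 level was 6.72 ± 0.11 (SE) over that at 1 TPM (adjusted p = 2.5e-08, limma). Coding transcripts alone held 178 TPM.

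Prkca, another conventional form, was far lower. It had 3.85, 5.12, 9.04 and 8.26 TPM, and Prkcb was 29.2-fold (range 18.1 to 39.2) above it, or 49.7-fold by coding transcripts. Prkca was above 1 TPM (adjusted p = 6.1e-04, limma), but not by its most abundant transcript alone (log2 level 0.85, adjusted p = 0.0590). That transcript (Prkca-203) is noncoding. By coding transcripts Prkca was above 1 TPM (log2 level 0.83, adjusted p = 0.0113, limma).

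The Prkcb gene ends in either of 2 exons, which give kinases named beta I and beta II that differ in their last residues, a stretch that sets where the kinase docks. Nearly all of the coding signal was beta II. Its coding transcript (Prkcb-202, 673 codons) had 152, 171, 156 and 231 TPM, and the beta I transcript (Prkcb-201, 671 codons) had 1.198, 0, 0.390 and 0 TPM, so that beta II was 99.7% of the pair, with 99.2% in the lowest library. A longer transcript with the same beta II coding sequence, annotated for decay (Prkcb-205), had 14.9, 16.8, 13.1 and 19.3 TPM. A single-exon transcript annotated as a retained intron (Prkcb-208) had 20.9, 23.1, 10.8 and 19.0 TPM. It lies at chr7:122633448-122634402 and covers the beta I exon, so reads from that exon could be shared out among these transcripts by the estimation. The 2 forms share 1863 coding bases and then read as follows, beta II from chr7:122627656-122627811 and beta I from chr7:122633745-122633894 (GRCm38, plus strand).
Beta II end: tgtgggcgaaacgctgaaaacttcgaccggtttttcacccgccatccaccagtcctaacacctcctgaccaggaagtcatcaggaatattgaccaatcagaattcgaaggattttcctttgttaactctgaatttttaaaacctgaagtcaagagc
Beta I end: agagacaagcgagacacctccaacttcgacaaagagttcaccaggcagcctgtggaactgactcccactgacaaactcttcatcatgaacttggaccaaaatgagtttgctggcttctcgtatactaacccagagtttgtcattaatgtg

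The atypical forms, which respond to neither calcium nor diacylglycerol and work with the polarity proteins of the Par complex, came next. Prkcz had 61.2, 56.1, 53.3 and 74.1 TPM, and Prkci had 33.5, 26.6, 34.7 and 18.2 TPM. Library 4 held the highest Prkcz and the lowest Prkci. Prkcz was 2.17-fold (range 1.52 to 3.92) above Prkci in 4 of 4 libraries, and 1.549-fold by coding transcripts alone. By the most abundant transcript of each it was 1.16-fold, which sets the long Prkcz form alone against Prkci, and Prkcz was then higher in 2 of 4 libraries. It was 1.21-fold, again in 2 of 4 libraries, by counts per 1000000 without length correction.

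Prkcz is known to have an internal start in brain, from which a short form is made that holds the kinase domain without the regulatory part (PKM zeta). The long coding transcript (Prkcz-201, 592 codons) had 26.2, 22.0, 27.4 and 38.4 TPM. The short one (Prkcz-202, 409 codons) had 15.7, 13.6, 11.02 and 13.1 TPM. The short form was 37.5, 38.2, 28.7 and 25.5% of the 2, or 32.5 ± 6.33%, lower than the long form in 4 of 4 libraries, and 22.1 ± 3.57% of the gene. Its level kept within 11.02 to 15.7 TPM, while the long form reached its highest value in library 4, where the short share was lowest. By estimated counts the short form was 43.0% of the 2. A noncoding transcript near the 3′ end (Prkcz-209) had 15.9, 17.6, 13.9 and 22.1 TPM. All 1227 coding bases of the short form are also the last 1227 of the long form's 1776, so the split rests on bases outside that shared sequence.

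RefSeq lists a start near that of each of these 2 forms on the minus strand of chromosome 4 (GRCm38.p6). The start of the long form lies at position 155361428, 67 bases from the annotated start of Prkcz-201, and the internal start at 155345789, 17 bases from that of Prkcz-202. RefSeq lists another start of the gene at 155344749, 1023 bases from that of Prkcz-202. The windows from 250 bases before to 50 after the start differed in composition: 71.0% G and C with 31 CpG at the long form's start, 59.3% with 13 CpG at the internal one and 58.3% with 14 CpG at the remaining one, beside a median of 52.7% and 7 CpG over all 32851 RefSeq windows. The palindromic cyclic AMP response element TGACGTCA, searched on both strands, was found in the internal window, beginning 7 bases before the RefSeq start, and in neither of the other 2 windows. It was found in 1.79% of all windows (588), and in 3 of the 67 windows that RefSeq lists for 47 of the 55 members, which belong to Prkcz and Inpp4a. TATAAA and CCAAT were also searched on both strands. Among the Prkcz windows CCAAT was found at the long form's start alone, and TATAAA in none. Of the member windows 2.99% held TATAAA and 28.4% CCAAT, beside 13.6% and 37.4% of all windows. A match of letters does not show that a factor binds. The 130 bases up to and including each RefSeq start are shown, 5′ to 3′ on the minus strand, because the short and long forms begin there. Capitals mark TGACGTCA. The coordinates are chr4:155361428-155361557 and chr4:155345789-155345918.
Long form start: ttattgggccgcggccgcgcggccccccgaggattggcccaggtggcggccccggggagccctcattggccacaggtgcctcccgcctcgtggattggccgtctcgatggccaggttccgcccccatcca
Internal start: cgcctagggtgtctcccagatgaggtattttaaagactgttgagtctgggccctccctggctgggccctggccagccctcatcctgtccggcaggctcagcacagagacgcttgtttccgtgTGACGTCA

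**Figure D3:**
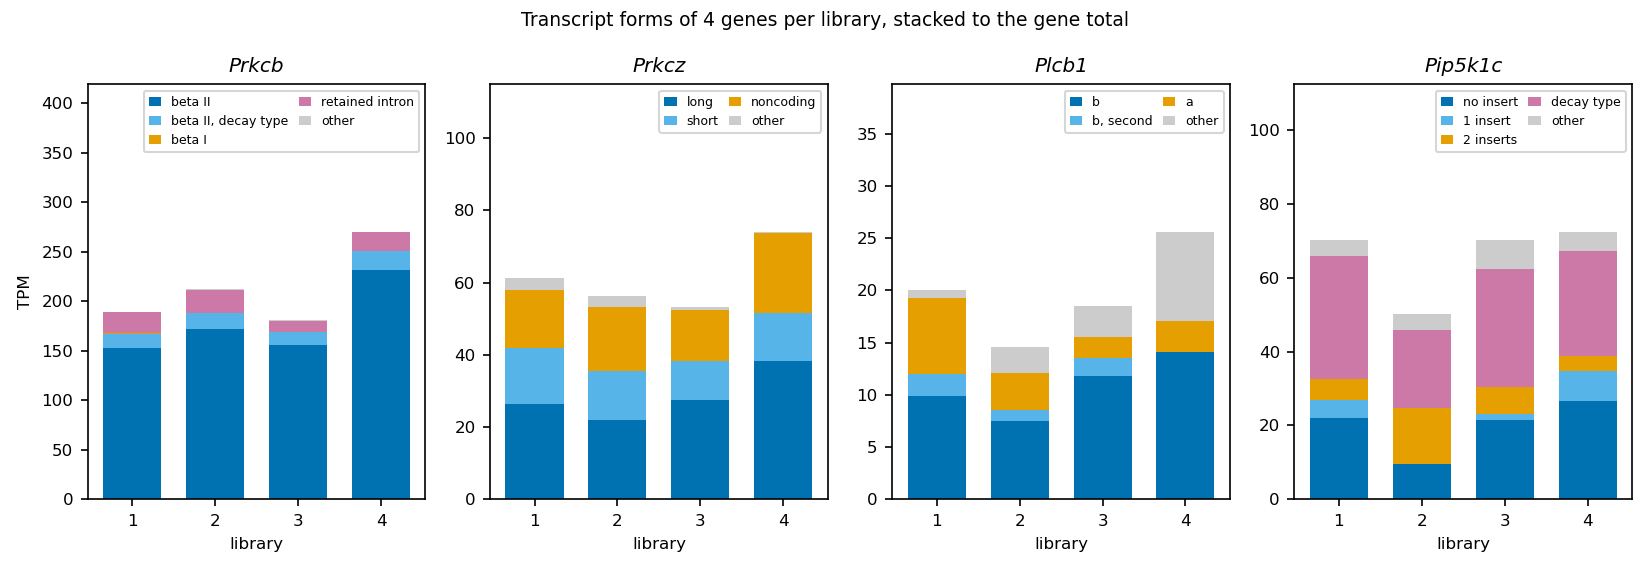
TPM of the transcripts of Prkcb, Prkcz, Plcb1 and Pip5k1c in each of the 4 libraries, stacked so that each bar reaches the total of the gene. Beta II fills most of each Prkcb bar, the short Prkcz form is the smaller of the 2 coding forms in each library, and the Pip5k1c transcript annotated for decay is present in all 4.

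The isoforms that need diacylglycerol but not calcium were all above 1 TPM, with means under 10 TPM. Prkcd had 6.73, 10.5, 12.2 and 4.78 TPM and Prkce 8.25, 10.5, 5.77 and 6.84 TPM, without 1 order between them. Prkcq, known from T cells and muscle, had 6.08, 4.62, 11.7 and 7.41 TPM. Of the 4 T cell markers, Lck was above 1 TPM at 3.61 ± 0.905 TPM, Cd3d was not placed at 1.23 ± 0.429 TPM, and Cd3e and Cd3g were at 0. The markers summed to 4.65, 4.71, 4.43 and 5.57 TPM, and the part of T cells in the Prkcq level was not tested. Prkch had 3.59, 2.78, 2.58 and 8.02 TPM, with library 4 highest and the other 3 lower and close together.

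The 10 diacylglycerol kinases summed to 116 ± 6.47 TPM, with 109.9, 116, 125 and 113 TPM, and 8 were above 1 TPM. Dgkz, a form with ankyrin repeats that is found in the nucleus and at synapses, led with 38.6, 39.8, 36.9 and 43.5 TPM, close together in all 4 libraries. Dgkb, a calcium-binding form enriched in striatal neurons, followed with 26.5, 15.2, 28.1 and 23.3 TPM, lowest in library 2. The delta and eta forms, Dgkd and Dgkh, averaged 15.2 ± 3.30 TPM and 12.03 ± 2.73 TPM and did not keep 1 order.

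Under 10 TPM were Dgkq, Dgki, Dgka, Dgke and Dgkg. Dgkq had 5.08, 15.1, 11.5 and 7.27 TPM, with libraries 2 and 3 above 1 and 4, but its coding transcripts had 3.10, 1.28, 6.30 and 3.42 TPM and put library 2 lowest. Dgke, which prefers diacylglycerol with arachidonate, had 4.23, 1.28, 3.91 and 4.86 TPM (adjusted p = 0.0134, limma). Its call was lost without library 3 (log2 level 1.04, adjusted p = 0.0513) and by the most abundant transcript alone (0.61, adjusted p = 0.248). Dgkg, another calcium-binding form, had 3.94, 1.57, 1.01 and 2.93 TPM and was not placed (adjusted p = 0.0657, limma). It was above 1 TPM without library 3 (log2 level 0.88, adjusted p = 0.0468) and by edgeR (1.24 as log2 TPM without the added 1, adjusted p = 0.00572). The limma call was also above with at least 5 mean counts (0.66, adjusted p = 0.0365) or rescaling over nuclear protein-coding genes (0.96, adjusted p = 0.0294). Dgkk was below 1 TPM with 9, 0, 4 and 0 estimated counts.

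Dgkz was 6.399-fold (range 5.37 to 8.62) above Dgki, its closest relative, and Dgkb was 4.41-fold (range 2.45 to 5.55) above Dgka. Dgka was 1.70-fold (range 1.03 to 2.83) above Dgkg, in 4 of 4 libraries but nearly level in libraries 1 and 4. Dgkq was 2.33-fold (range 1.16 to 7.08) above Dgke over all transcripts. By coding transcripts that ratio was 1.05-fold, with Dgkq higher in 2 of 4 libraries. Dgka over Dgkg did not keep 1 direction by counts per 1000000 without length correction.

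IP3 is removed by 3-kinases (Itpka, Itpkb and Itpkc), which add a phosphate, and by phosphatases, of which Inpp5a is the main enzyme for soluble IP3. The 4 inositol phosphate kinases summed to 89.6 ± 12.7 TPM and all were above 1 TPM. Itpka, a form of dendritic spines that also bundles actin, had 50.03, 43.1, 40.8 and 47.1 TPM, close to the 45.2, 46.8, 52.0 and 50.5 TPM of Inpp5a. Both varied little, with a log2 SD of 0.128 and 0.0921. Itpk1, which works on later steps towards higher inositol phosphates, had 18.5, 33.6, 31.5 and 52.6 TPM, the widest log2 spread of the 26 members of at least 10 TPM (SD 0.596). Library 1 was its lowest and library 4 its highest.

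Itpkc averaged 7.11 ± 1.73 TPM. Itpkb, the IP3 kinase known from lymphocytes, had 2.10, 5.24, 3.58 and 1.83 TPM (adjusted p = 0.0145, limma), and its call was just lost without library 2 (adjusted p = 0.050) or library 3 (0.0559). Itpka was 11.6-fold (range 7.07 to 17.0) above Itpkb, Inpp5a 12.5-fold (range 7.66 to 18.2) above Itpkb, and Itpkc 2.004-fold (range 1.01 to 2.75) above it, the last with almost equal values in library 2. By counts per 1000000 without length correction these ratios were 4.17-fold, 6.77-fold and 1.24-fold, and Itpkc no longer stood above Itpkb in 4 of 4 libraries.

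The 10 inositol polyphosphate phosphatases summed to 186 ± 17.5 TPM, with 9 above 1 TPM. After Inpp5a came Inpp5k, a phosphatase of the endoplasmic reticulum, with 33.9, 35.03, 35.5 and 41.1 TPM. Inpp5f, a phosphatase of endosomes, had 22.1, 24.2, 34.4 and 23.3 TPM, with library 3 high and the other 3 close together. Inpp5b and the ciliary phosphatase Inpp5e averaged 19.2 ± 7.06 TPM and 12.4 ± 3.40 TPM, and Inpp5b was highest in library 3. Inpp4a, which acts on a product of PI3 kinase signalling, had 14.8, 13.4, 14.6 and 7.91 TPM, with library 4 low. Inpp5j averaged 5.65 ± 2.02 TPM.

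Inpp5d (SHIP1), the phosphatase of blood cells and microglia, had 0.565, 4.58, 9.24 and 13.2 TPM. Library 1 was lowest and library 4 highest. It was above 1 TPM (adjusted p = 0.0331, limma), but the call was lost without library 2, 3 or 4 (adjusted p = 0.0758, 0.114 and 0.0986) and by its most abundant transcript alone (0.219). Inpp4b had 1.90, 0.494, 3.64 and 3.45 TPM and was not placed (adjusted p = 0.122, limma). Without library 2 it was above 1 TPM (log2 level 0.97, adjusted p = 0.0273), and edgeR called it so (1.23 as log2 TPM without the added 1, adjusted p = 0.0239). Within libraries, Inpp5k was 5.81-fold (range 4.68 to 7.31) above Inpp5j, Inpp4a 4.33-fold (range 2.01 to 9.62) above Inpp4b, and Inpp5f 4.46-fold (range 1.72 to 14.8) above Inpp5d.

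Plcg2 and Inpp5d were both lowest in library 1, and so were 8 of the 10 microglia markers. Library 1 was also lowest in 17 of the 53 members (32.1%) and in 32.2% of all genes of at least 1 TPM. The microglia markers summed to 138, 328, 445 and 436 TPM in libraries 1 to 4, with none of the 10 at 0. The part of microglia in the Plcg2 and Inpp5d levels was not tested. Oligodendrocyte markers (2521, 3704, 3351 and 4390.2 TPM) and ependymal markers (622, 1251, 837 and 1034 TPM) were also lowest in library 1, as were erythroid ones (59.9, 641, 449 and 2342 TPM). In RNA from many cells, fewer cells of a type and less RNA per cell cannot be told apart. The mature neuron markers summed to 1733, 1455, 1407 and 1509 TPM, led by Ppp1r1b (692 TPM), Nrgn (356 TPM) and Camk2a (218 TPM). These markers stand beside the levels of Prkcb, Itpka, Dgkb and Plcb1, which are known from forebrain neurons. Their sum was highest in library 1 and lowest in library 3. Itpka had the same order of libraries as this sum, Prkcb and Plcb1 were highest in library 4 and Dgkb in library 3, and the part of neurons in these levels was not tested.

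**Figure D4:**
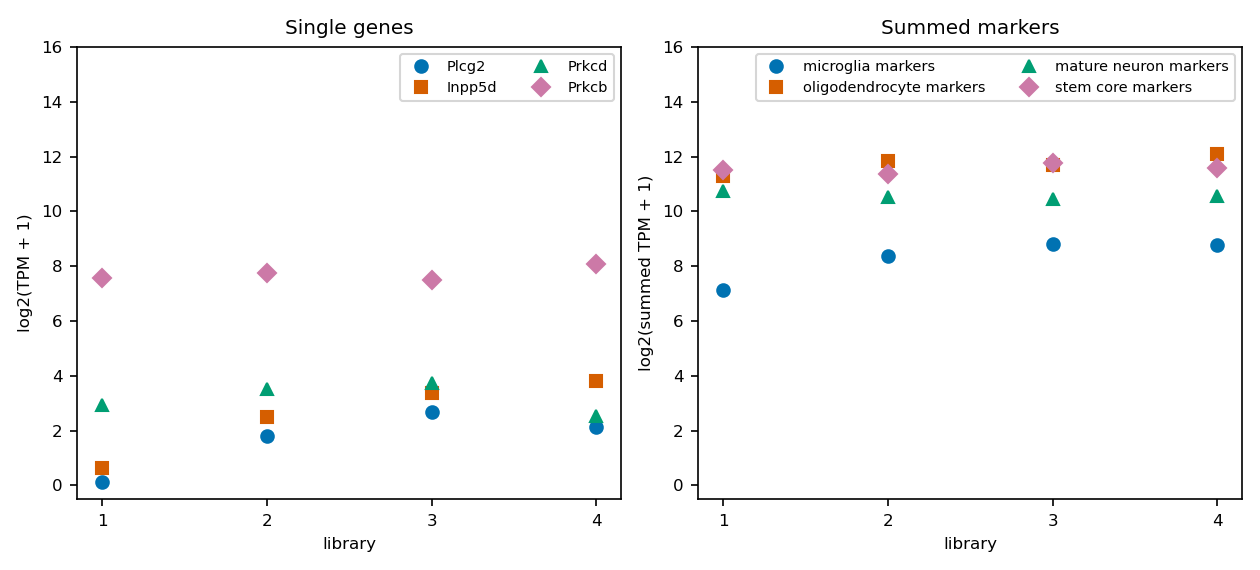
Left, log2(TPM + 1) of Plcg2, Inpp5d, Prkcd and Prkcb in each library; right, log2 of the summed TPM + 1 of 4 marker lists on the same vertical scale. Plcg2, Inpp5d and the microglia sum are lowest in library 1. Prkcb and the stem cell, mature neuron and oligodendrocyte sums each spread over less than 1 log2 unit.

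Which transcripts carried the signal mattered for some members and not for others. Of the TPM of all members, 82.6% lay in protein-coding transcripts, 6.57% in retained introns and 6.01% in transcripts annotated for nonsense-mediated decay. In 36 of the 53 members coding transcripts held at least 80% of the TPM, and in 13 all of it. The matching shares over all genes were not computed, so these counts and the 82.6% are description alone. Coding transcripts held under 50% in 6: Inpp1 (23.3%), Plcb4 (35.9%), Dgkq (36.2%), Prkca (40.7%), Plcb2 (47.0%) and Pip5k1c. Among members of at least 1 TPM this was 5 of 51, or 9.80%, beside 9.34% of all protein-coding genes of that level.

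Inpp1, which removes the phosphate at position 1 and is a target of lithium, had 14.5, 15.5, 9.98 and 24.1 TPM in all and 5.51, 2.05, 3.19 and 4.18 TPM in coding transcripts. A short transcript annotated for decay had 6.35, 4.77, 5.47 and 12.2 TPM, while the full coding transcript had 2.32, 1.32, 1.87 and 2.68 TPM. By estimated counts, however, coding transcripts held 57.0% of Inpp1, 92.3% of Prkca and 61.3% of Plcb4, and only Dgkq stayed under 50% (46.5%). TPM gives a short transcript more weight per count than a long one. In coding transcripts alone, 45 members were again above 1 TPM, beside 71.0% of the genes with a coding count and 71.1% of the protein-coding ones, and Dgkk and Plcb2 were below, beside 16.6%.

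**Figure D5:**
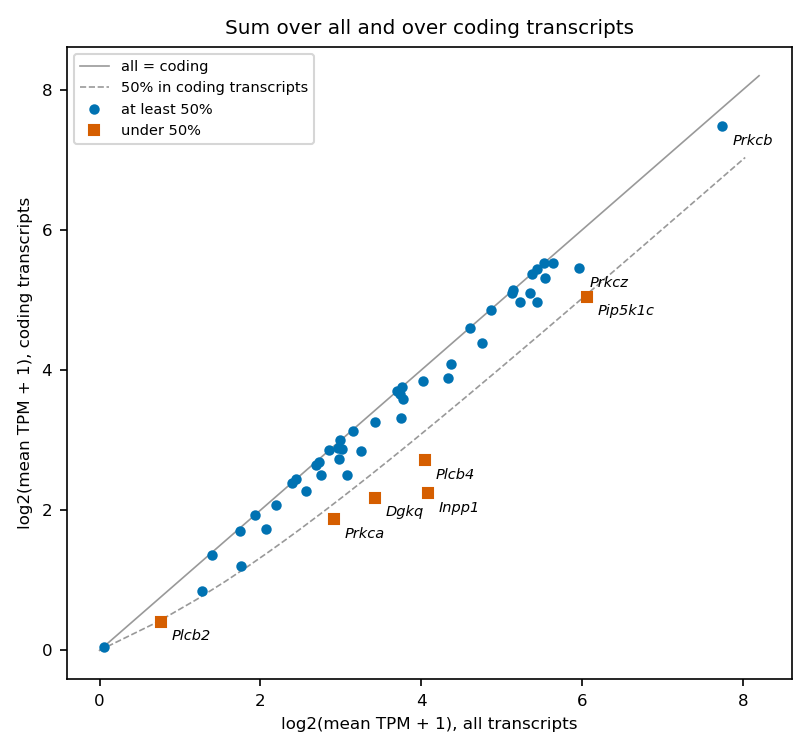
Mean level of the members named here over all transcripts (horizontal) and over coding transcripts (vertical), both as log2(mean TPM + 1). Most points lie near the line of equality, and 6 (squares) lie below the dashed line at 50%.

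Libraries did not share 1 order over the members. Library 3 and library 4 each held the highest value of 18 of the 53, library 2 of 11 and library 1 of 6. Over all genes of at least 1 TPM, library 3 was highest in 34.9% and library 4 in 27.4%, beside 34.0% each for the members. Among the 26 members of at least 10 TPM the median log2 SD was 0.289, beside 0.247 over the 9433 genes of that level. The spread ran from 0.0847 in Pip4k2c to 0.596 in Itpk1. In 2 members, Inpp5f and Pip5k1c, 1 library stood apart from the other 3 by Dixon's ratio on TPM, beside 5.86% of all genes of at least 1 TPM.

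Other genes of the pathway were taken from lists chosen with earlier results of these data known, so their shares are description alone. Of 79 genes in 8 lists, 70 were above 1 TPM (88.6%, beside 62.8% of all genes tested and 71.6% of the protein-coding ones), 2 below (Itpr3 and Rasgrp4) and 7 not placed. Upstream, 3 of 4 Gq-class alpha subunits were above 1 TPM, from Gna11 at 86.9 ± 15.1 TPM down to Gna15, not placed, at 2.21 ± 1.15 TPM. All 14 genes listed under phosphatidylinositol supply, with the PIP2 phosphatases Pip4p1 and Pip4p2 among them, were above 1 TPM. They ran from the transfer protein Pitpna at 134 ± 17.2 TPM to the lipid kinase Pi4ka at 5.57 ± 2.71 TPM. Of the IP3 receptors, the calcium channels of the store, Itpr1 was highest at 26.3 ± 5.401 TPM and Itpr3 lowest at 0.0307 TPM.

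Of 7 other phosphoinositide phosphatases 6 were above 1 TPM, from Inppl1 (SHIP2) at 38.8 ± 3.56 TPM to Synj2 at 1.51 ± 1.22 TPM, which was not placed. The means of SHIP2 and Inpp5d were 38.8 and 6.89 TPM. Of 12 genes of inositol recycling and higher inositol phosphates 11 were above it, from Ip6k1 at 82.1 ± 14.7 TPM to Ip6k3, not placed, at 1.07 ± 0.762 TPM.

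On the diacylglycerol side, 11 of 13 effectors other than protein kinase C were above 1 TPM. Chn1, a Rac-inactivating protein of neurons, was highest at 111 ± 12.6 TPM and Rasgrp4, a Ras activator of mast cells, lowest at 0.0872 TPM. All 9 genes listed as diacylglycerol lipases or phosphatidate phosphatases, with the monoacylglycerol lipase Mgll among them, were above 1 TPM. The highest was Plpp3, an outward-facing lipid phosphatase, at 1087 ± 150.2 TPM. The lowest was Dagla, which makes an endocannabinoid from diacylglycerol, at 3.88 ± 1.05 TPM. Plpp3 alone exceeded the summed 116 TPM of the 10 diacylglycerol kinases. Of 17 substrates, anchors and partners of protein kinase C 14 were above 1 TPM, from the substrate Marcksl1 at 462 ± 56.2 TPM to the phosphatase Phlpp2 at 1.30 ± 0.218 TPM, which was not placed.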

How the data were processed

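Transcript abundances were deposited per library as estimated counts and as TPM, per the file headers, and the submitters' processing notes name kallisto, sleuth and mm10; neither versions nor the transcript index are stated there. The deposited TPM values sum to 1000000 in each library over all transcripts, and depth was 16978938 to 23727664 estimated counts per library as the authors' files give them. Transcript IDs were matched to GENCODE M21 without their version: 98294 of 99567 matched, and the 1273 others held 0.530 to 0.619% of the counts and 2.59 to 4.56% of the TPM and stayed out of every gene sum.

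TPM was summed per gene and log2(TPM + 1) was tested against the value at 1 TPM with limma 3.58.1 in R 4.3.3 (mean-variance trend, Benjamini-Hochberg over 19914 genes), so differences from 1 TPM are on the log2(value + 1) scale and are smaller in size than the log2 of the level itself, by up to 1 log2 unit for high genes. The p-values measure the spread between these 4 libraries, which may be technical. The results were recomputed with a pseudocount of 0.1, with genes of at least 5 mean counts, with the most abundant transcript alone, with rescaling over nuclear protein-coding genes, by TMM factors (edgeR 4.0.16) or by DESeq2 1.42.0 size factors, and with each library left out. A further alternative was edgeR's quasi-likelihood test on estimated counts rounded to whole numbers with effective-length offsets (its F statistic was formed from the deviances, since the design has 1 column). The log2 values from edgeR are of TPM without the added 1, so their size cannot be set against the limma values. The limma test was tested on simulated counts for 19478 genes: at 4 TPM it called 99% of 200 genes above 1 TPM, at 2 TPM 78%, and at 1 TPM 0.5% of 2000 above and 6.2% below.

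Shares of transcripts are of TPM, with estimated counts as the alternative. The forms of Prkcb, Plcb1 and Pip5k1c were chosen after their values were seen. Coding sequences come from GENCODE M21 on GRCm38 and promoter windows from RefSeq on GRCm38.p6. The members, gene lists and pairs were chosen with earlier results of these data known. Genes are named by rule: members above 1 TPM with a mean of at least 10 TPM, the 2 lowest of each family, those whose call or library pattern differed, those with under 50% of TPM in coding transcripts, and both genes of each pair that kept 1 direction with at least a 2-fold ratio. Of each pathway list the highest and lowest gene are named, and other names were added after their values were seen. The values of 1 member are not reported here.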

Additional observations from a re-analysis of the deposited data

Results flagged for a closer look

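A library was set apart where the gap between the highest or lowest of the 4 values and its neighbour, divided by their whole range, was above Dixon's 95% critical value for 4 samples. On TPM this held for 2 members. Inpp5f had a ratio of 0.836, with library 3 above the other 3, and Pip5k1c had a ratio of 0.892, with library 2 below the other 3. Chance gives such a ratio in about 5% of groups of 4, and it was found in 5.86% of all genes of at least 1 TPM. On the log2(TPM + 1) scale the genes were Inpp4a and Pip5k1c. No explanation was tested.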

How the results depend on the processing

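The number of members above 1 TPM was 41 to 49 over the alternatives, against 45, and 44 to 48 by coding transcripts. Leaving out each library gave 43 to 46 and 44 to 46. One gene, Dgkk, was below 1 TPM, and this count was 0 with at least 5 mean estimated counts, since the gene then left the test, and 3 with the most abundant transcript alone. By coding transcripts 2 were below, and 1 with at least 5 mean counts, with rescaling over nuclear protein-coding genes or with edgeR. Members with under 50% of TPM in coding transcripts numbered 6, but 1 by estimated counts, and 5 to 6 with each library left out. The Prkcz short form was 32.5% of short and long, but 43.0% by estimated counts, and 30.6 to 34.8% with each library left out. It was 22.1% of the gene, but 39.2% by estimated counts, and 20.9 to 23.5% with each library left out. Plch2 turned from 0.32 over to -0.59 against 1 TPM (log2) with the most abundant transcript alone, which keeps only part of the gene. Where no construction is named, the cause was not tested. The pairs with 1 direction numbered 21 by coding transcripts, by the most abundant transcript and without length correction, but of the 21 pairs reported 20, 19 and 18 kept it. They also numbered 21 with a pseudocount of 0.1, and 22 to 23 with each library left out, where 3 libraries have to share a direction. Of 232 single pair ratios under alternatives, 31 moved by more than their spread between libraries. Without length correction Plcb3 was 47.4-fold above Plcb2, Plch1 8.24-fold above Plch2, Dgkb 9.46-fold above Dgka, Inpp4a 8.96-fold above Inpp4b and Pip5k1c 22.5-fold above Pip5k1b. By the most abundant transcript Plcb3 was 3.65-fold above Plcb1, Prkcb 48.8-fold above Prkca and Pip5k1c 6.23-fold above Pip5k1b. The most abundant Prkca transcript is noncoding and that of Pip5k1c is annotated for decay, so these ratios do not compare coding transcripts alone. Of 582 values for single members under alternatives, 561 kept their call, 10 lost it, 10 gained one and 1 reversed. No paired comparison between groups of libraries was possible because the labels give 1 group.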
